A study of Homo sapiens with 4 samples.

Results

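The 10 genes studied here set B cell and plasma cell identity or connect it to a drug target in myeloma, and they were followed in MM.1S cells treated with an inhibitor of neddylation. The genes were the ligase receptor CRBN (cereblon), the Ikaros family factors IKZF1 and IKZF3, the plasma cell factors IRF4, PRDM1 and POU2AF1, the B cell stage factors BCL6, BACH2 and PAX5, and the chromatin organiser SATB1. They were chosen by name, and every probe set annotated to them was taken, which gave 32 of 54675 probe sets. These 10 genes are among 19775 genes with a probe set of their own, and 9 of them were among the 12446 genes that counted as measured. PAX5 did not.

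The treated cells received 250 nM MLN4924 for 8, 16 or 24 h and the control cells received the vehicle DMSO. Each of the 4 groups was 1 array, and how long the control cells were cultured is not stated in their label. MM.1S is an established human multiple myeloma line, a single cell type grown in vitro and outside the marrow. With 1 array per group there was no replicate, no test between groups was possible, and each value below is the difference of 1 array from another. All 3 comparisons share the control array.

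MLN4924 blocks the enzyme that activates NEDD8, a small protein that must be joined to cullins before cullin-RING ubiquitin ligases work. Cereblon is the substrate receptor of one such ligase, built on CUL4 with the adaptor DDB1. When lenalidomide or pomalidomide is bound, this ligase takes up IKZF1 and IKZF3, which are then degraded, and in myeloma cells IRF4 and MYC decline after them. In plasma cells IRF4 and Blimp-1, the product of PRDM1, drive the secretory programme, and Blimp-1 represses the B cell genes PAX5 and BCL6. The arrays measured RNA, so they do not show the amount of cereblon or Ikaros protein.

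The deposited values were array intensities on a linear scale, with medians of 92.2 on the control array and 95.1, 94.3 and 95.4 at 8, 16 and 24 h. Values were raised to a floor of 48.4 and put on the log2 scale, and a gene was represented by its brightest probe set. A probe set counted as measured when its geometric mean over the 4 arrays was above 93.9, the median of all probe sets, and 20 of the 32 were. The pooled SD between measured probe sets of the same gene in log2 differences was 0.16, 0.19 and 0.18 for the 8, 16 and 24 h arrays, which stands in for technical spread and leaves out the spread between cultures. Intensities of different probe sets depend on the probes, so levels are compared across arrays and not between genes.

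The arrays carried the RNA of plasma cells. All 7 plasma cell markers were measured, among them SDC1 (CD138), TNFRSF17 (BCMA) and the joining chain gene JCHAIN, and their summed intensity was 56683 on the control array and 49937, 53411 and 53216 at 8, 16 and 24 h. The B cell antigen gene MS4A1 (CD20) was below the filter, with 74.1, 73.2, 77.4 and 84.0 on the same arrays, while CD22, CD79A and CD79B passed it. T and NK cell markers (3 of 7 measured), myeloid markers (1 of 4) and fibroblast markers (1 of 5) had summed intensities of 526 to 545, 223 to 250 and 496 to 514 over the 4 arrays, with CD2, CD14 and LYZ near or under the floor.

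Upstream DNA is shown for 3 of the genes, as the 250 bases before the RefSeq gene start (GRCh38.p14), 5′ to 3′ on the gene's strand. SATB1 is shown because it had the largest difference of the 10 genes, and IRF4 and PRDM1 because these plasma cell factors lay on opposite sides of the control at 8 h. Capitals mark letters that match 1 of 8 motifs searched on both strands. The SATB1 stretch is chr3:18445593-18445842 on the minus strand, that of IRF4 is chr6:391502-391751 on the plus strand, and that of PRDM1 is chr6:106086086-106086335 on the plus strand.
SATB1: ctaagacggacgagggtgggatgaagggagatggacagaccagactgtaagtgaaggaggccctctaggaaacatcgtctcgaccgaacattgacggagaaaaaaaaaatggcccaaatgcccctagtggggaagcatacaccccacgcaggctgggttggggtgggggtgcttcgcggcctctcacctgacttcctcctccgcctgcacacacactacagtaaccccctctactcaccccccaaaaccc
IRF4: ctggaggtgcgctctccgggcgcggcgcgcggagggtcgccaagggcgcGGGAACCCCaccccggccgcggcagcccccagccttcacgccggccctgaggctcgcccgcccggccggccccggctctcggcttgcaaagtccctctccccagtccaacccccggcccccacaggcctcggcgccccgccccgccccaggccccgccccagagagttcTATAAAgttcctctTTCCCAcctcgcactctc
PRDM1: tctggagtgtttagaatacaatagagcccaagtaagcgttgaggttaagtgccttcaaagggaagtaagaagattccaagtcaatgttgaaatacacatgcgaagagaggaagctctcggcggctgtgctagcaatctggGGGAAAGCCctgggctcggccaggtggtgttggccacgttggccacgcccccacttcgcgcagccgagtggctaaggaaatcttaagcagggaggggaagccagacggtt

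The motifs were the octamer ATGCAAAT, the composite ETS-IRF element GGAANNGAA, the interferon-stimulated element GAAANNGAA, the NF-kB site GGGAANNCC, the E-box CACGTG, the Ikaros core TGGGAA, the antioxidant element TGANNNNGC and the TATA box TATAAA. Some can overlap, such as the NF-kB site and the Ikaros core, which share GGGAA. The SATB1 stretch held none of them. The IRF4 stretch held 1 NF-kB pattern, found in 5.77% of 27305 promoters of the same length, a TATA box, found in 11.1%, and 1 Ikaros core on the minus strand, found in 21.1%. The PRDM1 stretch held 1 NF-kB pattern. None of these matches overlapped another. GC content was 57.2% for SATB1, 76.0% for IRF4 and 53.6% for PRDM1, against a median of 58.0% over all promoters. Promoters of 8 of the 10 genes were matched in the RefSeq table, and those of IKZF3 and POU2AF1 are not used here. A match describes the letters in this window and is not a binding site.

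Cereblon RNA was above the control at 16 and 24 h, while its 8 h difference lay inside the SD between probe sets. The brighter CRBN probe set had an intensity of 621 on the control array and 574, 734 and 742 at 8, 16 and 24 h. The other had 501, 490.0, 647 and 621 on the same arrays. Both probe sets were below the control at 8 h and above it at 16 and 24 h. In log2 terms the brighter one differed from the control by -0.11, 0.24 and 0.26 and the other by -0.033, 0.37 and 0.31. At 8 h the brighter one was 0.72 times the SD between probe sets below the control, and 25.5% of measured genes were lower still. Its 24 h difference was 1.42 times that SD and corresponds to 1.19-fold, and 83.7% of measured genes had a lower one.

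IKZF3, which encodes Aiolos, was the lowest of the 10 genes at 8 h. Its brightest probe set had 907 on the control array and 607, 790.0 and 839 at 8, 16 and 24 h. The second had 769, 565, 721 and 747 and the third 337, 230.5, 276 and 281. All 3 were lowest at 8 h and then nearer to the control, without reaching it by 24 h. The log2 differences at 8 h were -0.58, -0.44 and -0.55, which for the brightest is 1.49-fold lower and 3.63 times the SD between probe sets. Only 145 of 12446 measured genes were lower at that time. At 24 h the 3 probe sets stood at -0.11, -0.041 and -0.26, within the spread of probe sets for the first and second.

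IKZF1, which encodes Ikaros and shares its DNA-binding zinc fingers with Aiolos, did not follow IKZF3 at 8 h. Its brightest probe set had 1134 on the control array and 1214, 1271 and 1156 at 8, 16 and 24 h, or log2 differences of 0.099, 0.16 and 0.028. Of its 9 probe sets 5 were measured, and at 8 h 3 of these were above the control and 2 below. At 16 h 4 were above it, by 0.16 to 0.24. The fifth, the dimmest of the measured ones, had 156 on the control array and 138, 99.5 and 125 at 8, 16 and 24 h, a log2 difference of -0.65 at 16 h. This probe set carries the same RefSeq accession in the annotation as the brightest one. The log2 differences of the 2 Ikaros genes at 8 h lay 0.68 apart, with IKZF3 the lower.

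**Figure D1:**
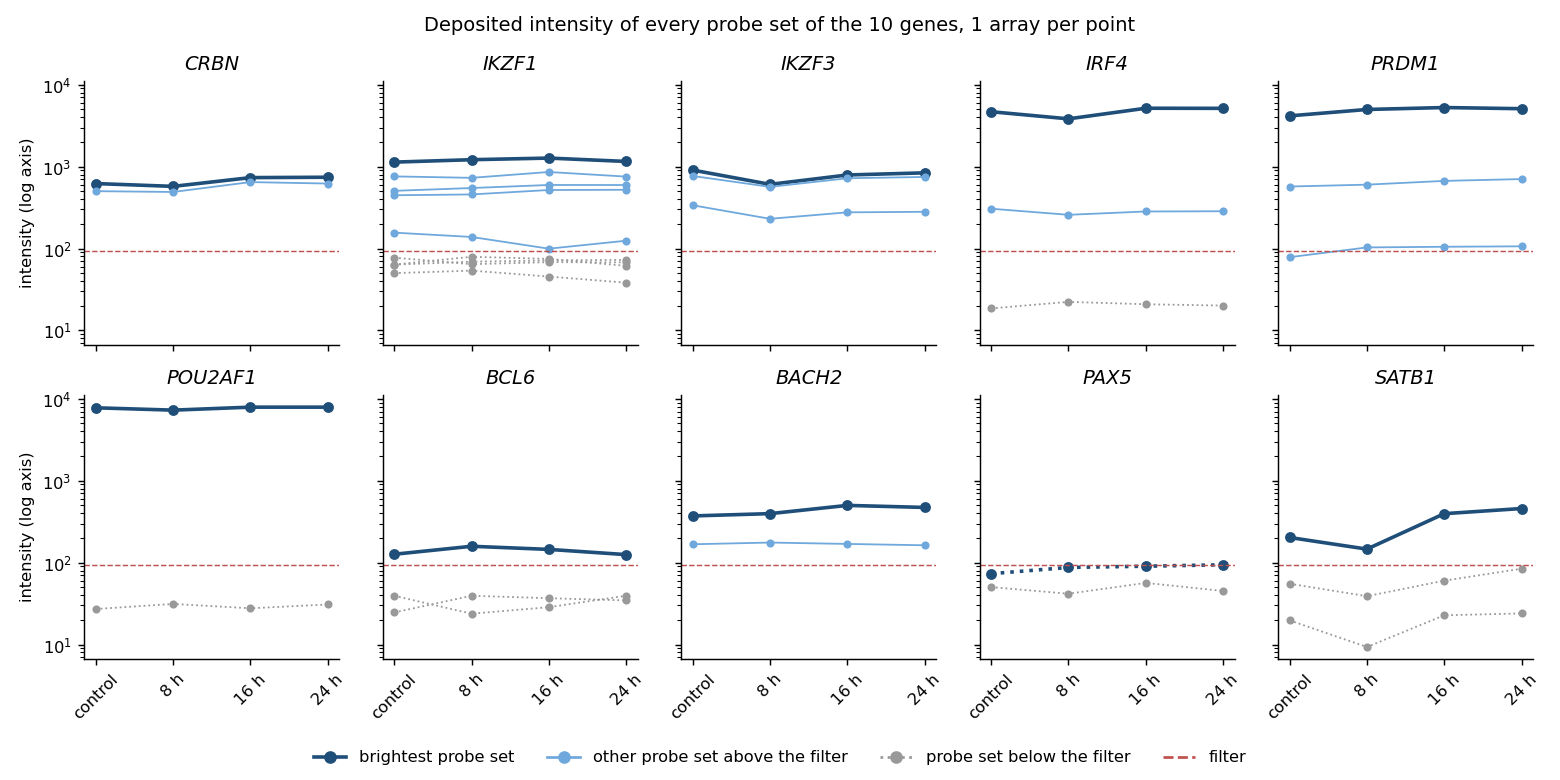
Deposited intensity (log axis) of every probe set of the 10 genes on the control, 8, 16 and 24 h arrays, 1 array per point, with the brightest probe set of each gene in dark blue and the filter as a dashed line. The 3 IKZF3 lines dip at 8 h, the brightest SATB1 line moves between 146 at 8 h and 458 at 24 h, and the POU2AF1 line is nearly flat.

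Of the other Ikaros family genes 2 were measured, with medians of -0.22, -0.32 and -0.25, and the 16 h median was -0.12 with no filter or with the median over probe sets. IKZF5 stood at -0.30, -0.61 and -0.40 at 8, 16 and 24 h, with another probe set of the opposite sign, and IKZF4 at -0.14, -0.025 and -0.10, inside the SD between probe sets each time. IKZF2, which encodes Helios, was below the filter, with an intensity of 97.7 on the control array and 90.1 to 91.4 after treatment.

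IRF4, a factor on which myeloma cells depend, was lower at 8 h in both measured probe sets. The bright one had 4678 on the control array and 3829.9, 5160.2 and 5143.7 at 8, 16 and 24 h. The dimmer one had 306, 258, 283 and 285. Both were lowest at 8 h, and later the bright one lay above the control and the dimmer one below it. The log2 differences were -0.29, 0.14 and 0.14 in the first and -0.25, -0.11 and -0.10 in the second, so the direction at 16 and 24 h depends on the probe set. The 8 h difference of the bright one was 1.22-fold lower, with 7.64% of measured genes lower still. The third probe set, at 18.6 to 22.3, lay under the floor on all 4 arrays.

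PRDM1, which encodes the repressor Blimp-1, was above the control on every treated array in all 3 of its probe sets. The brightest had 4163 on the control array and 4983, 5262 and 5094 at 8, 16 and 24 h. The second had 571, 602, 669 and 704 and the third 78.3, 103, 105 and 106. The control array was lowest each time. The log2 differences of the brightest were 0.26, 0.34 and 0.29, those of the second 0.075, 0.23 and 0.30, and those of the third 0.40, 0.42 and 0.44, the last with a control value under the array median. For the brightest probe set these are 1.20-fold, 1.26-fold and 1.22-fold, and 90.6%, 89.6% and 86.6% of measured genes had lower values at 8, 16 and 24 h.

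POU2AF1, a coactivator that works with octamer-binding factors at immunoglobulin and other B lineage genes, had the smallest span of the measured genes among the 10. Its 1 measured probe set had 7771 on the control array and 7276, 7913 and 7910.5 at 8, 16 and 24 h. The log2 differences were -0.095, 0.026 and 0.026, all inside the spread of probe sets. The span from its lowest to its highest array was 0.12, and 8.64% of measured genes had a smaller span.

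The 3 genes of earlier B cell stages were dim or differed between their probe sets. BCL6, the repressor of the germinal centre, had 127 on the control array and 158, 145 and 125 at 8, 16 and 24 h in its 1 measured probe set, with log2 differences of 0.32, 0.20 and -0.015. The value at 8 h was 1.25-fold higher. Its 2 other probe sets lay under the floor on all 4 arrays, so the gene rests on a single dim probe set. BACH2, a repressor that holds B cells back from plasma cell differentiation, had 372 on the control array and 396.5, 499.8 and 472 at 8, 16 and 24 h. Its second probe set had 168, 176, 169 and 163. The first was 0.43 and 0.34 above the control at 16 and 24 h (log2) and the second 0.014 and -0.041, a gap larger than the SD between probe sets of a gene. PAX5, the factor that maintains B cell identity, had 73.3 on the control array and 87.35, 90.4 and 94.1 at 8, 16 and 24 h in its brighter probe set and 41.7 to 56.5 in the other. Its brighter values were under the median of their arrays and were not shown to be above background, so no size is drawn from them.

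SATB1, which organises chromatin loops and is best known from T cell development, had the largest differences of the 10 genes. Its 1 measured probe set had an intensity of 203 on the control array and 146, 396 and 458 at 8, 16 and 24 h. It was lowest at 8 h and highest at 24 h. The log2 differences from the control were -0.47, 0.97 and 1.17, or 1.39-fold lower, 1.95-fold higher and 2.26-fold higher. Only 59 of 12446 measured genes had a higher difference at 16 h and 34 at 24 h. Between the 8 h and 16 h arrays it was 2.71-fold higher at 16 h (log2 1.44), and only 2 measured genes had a larger step. Its dimmer probe sets had 55.2, 38.9, 60.2 and 84.3, and 19.7, 9.33, 22.75 and 24.0, on the 4 arrays. Both were lowest at 8 h and highest at 24 h, but the first lay under the median of each array and the second under the floor. With the first of these, which is also the middle value of the 3, the log2 differences were -0.19, 0.12 and 0.61, so the 1.5-fold difference at 16 h and the 2-fold difference at 24 h rest on the brightest probe set.

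SATB1 is abundant in T cells, so T and NK cell markers were set beside it. Of 12 listed genes 5 were measured, all dim, with medians of 0.12, -0.050 and -0.0028, and the summed intensity of the list was 862 on the control array and 916, 887 and 942 at 8, 16 and 24 h. CD3E and CD3G, of the T cell receptor complex, stood at -0.31 and -0.30 at 24 h. The receptor gene TRBC1 had an intensity of 89.8 on the control array and 124, 123 and 146 at 8, 16 and 24 h, and GNLY, of cytotoxic granules, had 83.9, 84.1, 112 and 123. Both stood under the filter of 93.9 on the control array, so their sizes are uncertain. At 24 h TRBC1 (log2 0.70) was the 1 measured gene of the list at least 1.5-fold higher, beside 2.85% of all measured genes. GNLY stood at 0.56 at that time. CD3E had an intensity of 87.6 at 24 h, also under the filter, so its size is uncertain too. The defining markers CD2 and CD3D were below the filter, at 35.2 to 42.6 and 66.0 to 89.1. The part of such transcripts in the SATB1 values was not tested. The myeloid list had medians of -0.030, -0.051 and -0.040 over 2 measured genes and the fibroblast list -0.077, -0.11 and -0.14 over 2. MM.1S is a single cell type, so these values are not read as numbers of other cells. In bulk RNA, a change in some of the cells and a smaller change in every cell cannot be told apart.

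**Figure D2:**
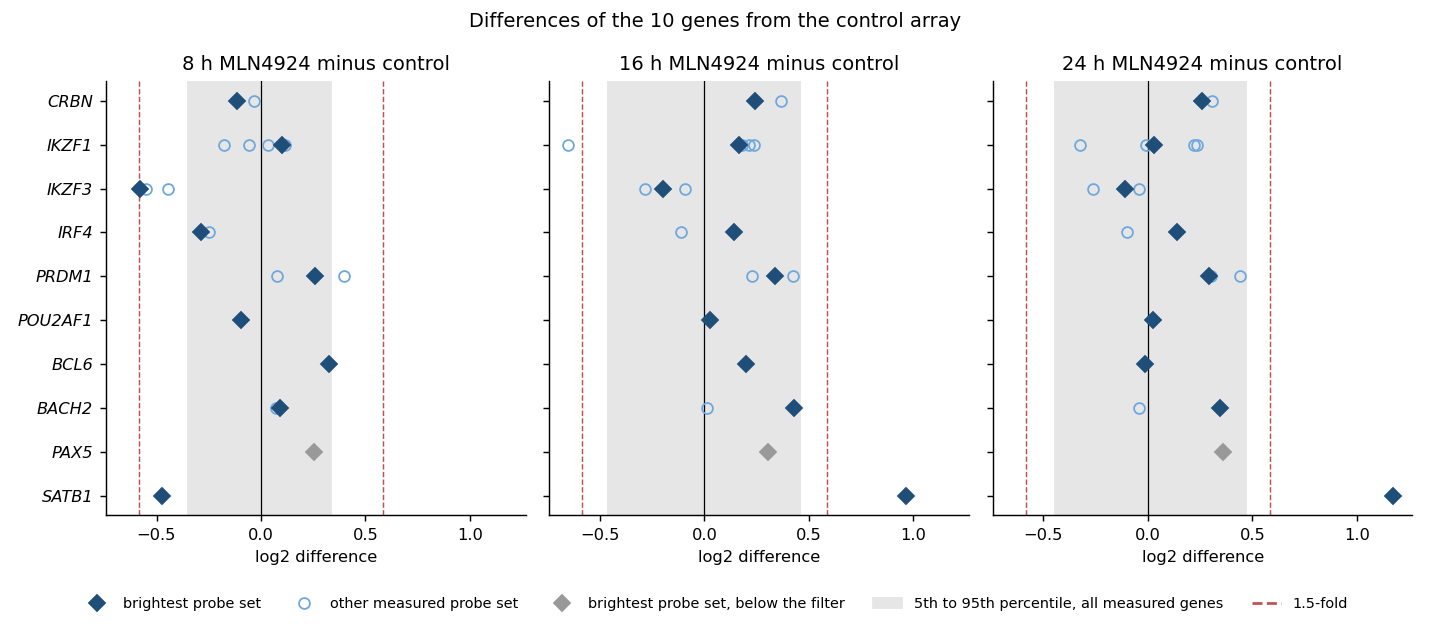
Log2 difference of each gene from the control array at 8, 16 and 24 h, with the brightest probe set as a diamond (grey for PAX5, below the filter), other measured probe sets as circles, the 5th to 95th percentile of all measured genes shaded and 1.5-fold as dashed lines. IKZF3 and SATB1 lie left of the shaded range at 8 h, and SATB1 lies to the right of it at 16 and 24 h, at 0.97 and 1.17.

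Counted over the 9 measured genes, few passed a fixed fold. At 8 h 0 were at least 1.5-fold higher, where 0.731% of all measured genes were, and 0 were at least 1.5-fold lower, where 1.12% were. IKZF3 stood just short of that limit (-0.58 on the log2 scale), and it passed when the arrays were scaled to the same median. At 16 h 1 gene was at least 1.5-fold higher, SATB1, against 2.24% of all measured genes, and 0 were at least 1.5-fold lower, against 2.73%. At 24 h the same gene was at least 1.5-fold higher, against 2.85%, and at least 2-fold higher, against 0.514%, and 0 were 1.5-fold lower, against 2.31%.

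By sign, 4 of the 9 genes were above the control at 8 h, where 51.7% of all measured genes were, 8 at 16 h, where 54.3% were, and 7 at 24 h, where 52.6% were. With arrays scaled to the same median 7 of 9 were above it at 16 h and 5 of 9 at 24 h, and with the median over each gene's probe sets 6 and 5. At 24 h IKZF1 and POU2AF1 stood only 0.028 and 0.026 above the control. The median of the 9 was -0.095, 0.20 and 0.14 at 8, 16 and 24 h, beside 0.0071, 0.026 and 0.016 for all measured genes. The 24 h median was 0.013 with the median over each gene's probe sets and 0.028 over its measured ones, near that of all genes, and the 8 h median was -0.00088 with no filter, over 10 genes. From 8 h to 16 h 8 of 9 genes were higher at 16 h, all but BCL6, where 52.9% of all measured genes were, and the median step was 0.33, beside 0.015. SATB1 was the 1 gene at least 2-fold higher in that step, against 0.217% of all measured genes. CRBN, IKZF3, IRF4 and BACH2 had steps of 0.36, 0.38, 0.43 and 0.33, the last being the median itself. The other measured probe sets of CRBN (0.40) and IKZF3 (0.35 and 0.26) had like steps, while the dimmer one of IRF4 had 0.13 and that of BACH2 -0.056. The median step therefore depends on which probe set stands for BACH2. Between the 16 h and 24 h arrays the steps ran between -0.21 for BCL6 and 0.21 for SATB1, with a median of -0.0046.

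The genes nearest to SATB1 in their 3 differences were looked up among 12445 other measured genes, by Euclidean distance on the log2 scale. They were CLEC7A, the receptor dectin-1, at a distance of 0.22, the noncoding RNA gene LINC-PINT at 0.24, the chemokine receptor gene CCR2 at 0.25, C16orf54 at 0.37 and the mitophagy receptor gene BNIP3L at 0.42, beside a median distance of 1.58. CLEC7A had 1122 on the control array and 887, 1995 and 2341 at 8, 16 and 24 h. CCR2 had 258, 163, 451 and 583 on these arrays, and LINC-PINT had 481, 399.7, 859 and 1098. Each was lowest at 8 h and highest at 24 h, a shape favoured by choosing genes near the brightest SATB1 probe set. The 3 other measured probe sets of CLEC7A had the same signs, with smaller differences of 0.59 to 0.80 at 24 h, and the other one of BNIP3L stood at 0.72. A likeness over 4 arrays is a description of these arrays.

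**Figure D3:**
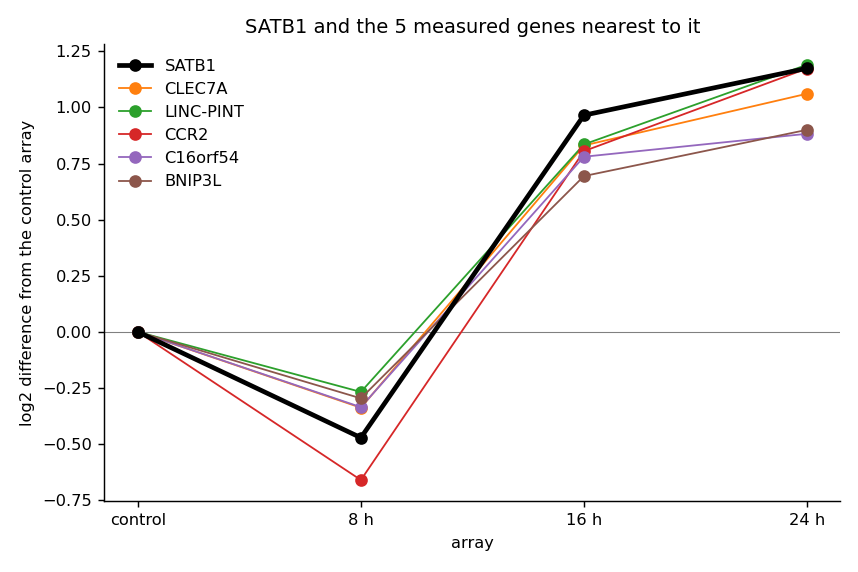
Log2 difference from the control array for SATB1 (thick black) and the 5 measured genes nearest to it, 1 array per point. All 6 lines lie below 0 at 8 h and between 0.69 and 0.97 at 16 h, and they end between 0.88 and 1.19 at 24 h.

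Of 11 listed genes of the core of the cereblon ligase and of cullin control 9 were measured, with medians of 0.022, 0.075 and 0.078. At 8, 16 and 24 h 5, 6 and 6 were above the control, beside 51.7%, 54.3% and 52.6% of all measured genes, and 0 passed 1.5-fold at any time, where at most 2.85% of all measured genes did in either direction. RBX1, the RING protein that recruits the ubiquitin-conjugating enzyme, was the furthest from the control, with 3519.9 on the control array and 3076, 2639 and 2629.9 at 8, 16 and 24 h, or -0.19, -0.42 and -0.42. It has no other measured probe set. The scaffold gene CUL4B stood at 0.034, 0.052 and 0.35, with 3 other measured probe sets of the same sign at 24 h. UBE2G1, a ubiquitin-conjugating enzyme that serves this ligase, stood at 0.15, 0.28 and 0.20, with 1 of its 2 other probe sets of the opposite sign. CAND1, which exchanges substrate receptors on cullins, stood at -0.14, -0.27 and -0.24.

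Genes of other proteins that drug-bound cereblon takes up were measured for 8 of 11. Their medians were -0.089, -0.016 and -0.10, and 2, 3 and 3 of them were above the control at 8, 16 and 24 h, where 51.7%, 54.3% and 52.6% of all measured genes were. At least 1.5-fold higher or lower were 0 of the 8, where at most 2.85% of all measured genes were in either direction. The zinc finger gene ZMYM2 stood at -0.32, -0.19 and 0.027 and RAB28, a small GTPase, at -0.29, -0.22 and -0.16, each with 1 other probe set of the opposite sign at 8 h. The zinc finger gene ZFP91 stood at -0.17, 0.080 and 0.0049, with its 1 other measured probe set of the opposite sign at 8 h. GSPT1, a translation termination factor, stood at -0.065, -0.17 and -0.18. The 5 measured genes of proposed natural clients or partners had medians of -0.019, -0.031 and -0.13, the last turning to 0.13 with the median over probe sets. Among them BSG (the chaperoned membrane protein CD147) stood at 0.12, 0.34 and 0.36, MEIS2, a homeobox factor, at 0.0012, -0.20 and -0.53, PRKAA1, a catalytic subunit of AMP-activated kinase, at -0.25, -0.33 and -0.19, and APP, the amyloid precursor, at -0.15, 0.032 and -0.055. PRKAA1 and APP each had 1 other probe set of the opposite sign.

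Genes listed as targets of IRF4 in myeloma lay on both sides of the control. Of 11 measured genes 5, 4 and 4 were above the control at 8, 16 and 24 h, beside 51.7%, 54.3% and 52.6% of all measured genes, with medians of -0.0096, -0.18 and -0.23, and the list includes PRDM1. KLF2, a transcription factor gene, had 706 on the control array and 301, 285.5 and 269 at 8, 16 and 24 h, or -1.23, -1.31 and -1.39, with no other measured probe set. ELL2, an elongation factor needed for secretory immunoglobulin transcripts, had 865 on the control array and 489, 625 and 653 at 8, 16 and 24 h. Its log2 differences of -0.82, -0.47 and -0.41 were furthest from 0 at 8 h. CFLAR, which holds back caspase-8, had differences of -0.55, -0.13 and -0.23, with 2 of 11 other probe sets of the opposite sign, and SQLE, of cholesterol synthesis, at 0.44, -0.37 and -0.49. KLF2 and ELL2 were the 2 genes at least 1.5-fold lower at 8 h, and KLF2 the 1 at 16 h and at 24 h, beside 1.12%, 2.73% and 2.31% of all measured genes.

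Among factors that work with the 10 genes, 21 of 27 were measured, with medians of -0.082, 0.0078 and -0.029, and 9, 12 and 7 were above the control, beside 51.7%, 54.3% and 52.6% of all measured genes. TCF4, an E protein of B and plasma cells, had 2889.9 on the control array and 1762, 1793 and 2297 at 8, 16 and 24 h. Its differences were -0.71, -0.69 and -0.33, and its 7 other measured probe sets had the same sign at 8 h. TCF4 was the 1 factor of 21 at least 1.5-fold lower at 8 and 16 h, beside 1.12% and 2.73% of all measured genes. ETS1, a factor that restrains plasma cell differentiation in mice, stood at -0.38, -0.42 and -0.58, with 1 of 2 other probe sets of the opposite sign. The demethylase gene KDM1A stood at -0.12, -0.35 and -0.46, and BATF3, a partner of IRF4 in composite elements, at 0.49, 0.25 and 0.30 from a dim control value of 124.

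Of the plasma cell secretory and surface genes, 5 of 21 measured were above the control at 8 h, 9 at 16 h and 12 at 24 h, beside 51.7%, 54.3% and 52.6% of all measured genes, with medians of -0.16, -0.033 and 0.0075. ELL2 belongs to this list too and was the 1 gene at least 1.5-fold lower at 8 h, beside 1.12% of all measured genes. LAX1, an adaptor of lymphocyte receptors, had 1074 on the control array and 1347, 1717 and 1778 at 8, 16 and 24 h. It was the 1 gene at least 1.5-fold higher at 16 and 24 h (0.68 and 0.73), beside 2.24% and 2.85% of all measured genes. The costimulatory receptor gene CD28 stood at -0.14, 0.43 and 0.51, and DERL3, which serves the removal of misfolded proteins from the endoplasmic reticulum, at -0.21, -0.43 and -0.57.

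Mature B cell genes, many of them repressed by Blimp-1 or lost with PAX5, were measured for 18 of 29 listed genes. Their medians were -0.038, 0.051 and 0.033, and 8, 12 and 10 were above the control, beside 51.7%, 54.3% and 52.6% of all measured genes. ID3, an inhibitor of E proteins, had 403 on the control array and 261, 224 and 188 at 8, 16 and 24 h, or -0.63, -0.85 and -1.10. CIITA, the activator of MHC class II genes and a target of Blimp-1 repression, had 184, 114, 124 and 132, or -0.69, -0.57 and -0.47, with its other measured probe set of the opposite sign at 8 h. The complement receptor gene CR2 stood at -0.33, -0.81 and -0.93. BLNK, an adaptor of B cell receptor signalling, had 724 on the control array and 821, 1144 and 1213 at 8, 16 and 24 h. It was the 1 gene at least 1.5-fold higher at 16 and 24 h (0.66 and 0.75), beside 2.24% and 2.85% of all measured genes. At least 1.5-fold lower were 2 genes at 8 h (CIITA and ID3), 3 at 16 h (ID3, CR2 and MYBL1, the last named after its values were seen) and 2 at 24 h (ID3 and CR2), beside 1.12%, 2.73% and 2.31% of all measured genes.

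**Figure D4:**
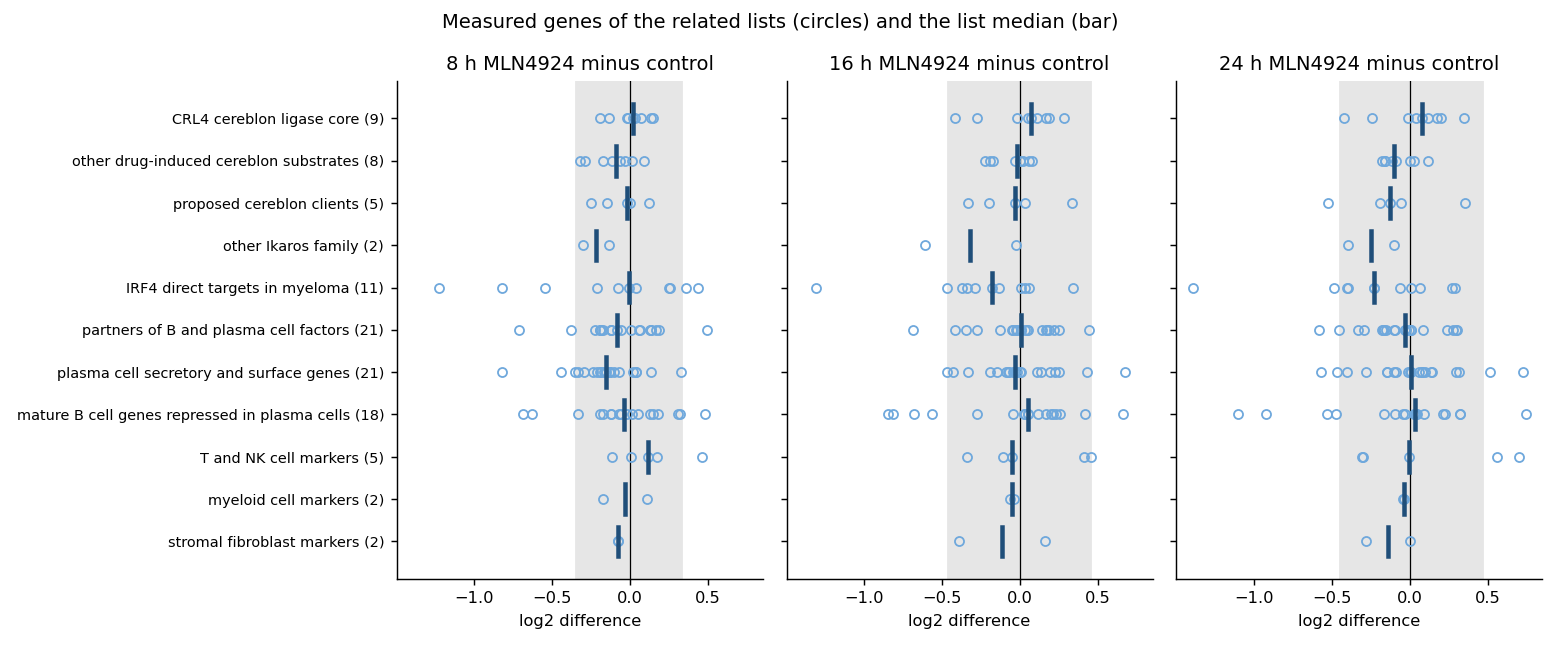
Log2 difference from the control array at 8, 16 and 24 h for the measured genes of each related list (circles), with the list median as a bar and the 5th to 95th percentile of all measured genes shaded. The number of measured genes follows each list name, the list medians lie between -0.32 and 0.12, and KLF2 is the gene furthest to the left in each panel.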

How the data were processed

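Per the labels' protocols, total RNA was taken from MM.1S cells by Trizol, and biotin-labelled cRNA made from it was run on Affymetrix arrays. The values deposited by the authors are array intensities on a linear scale, and how they were summarised, background-corrected and normalized is not given in the sources used here. The array medians differed by at most 0.048 (log2), and no normalization was added. No detection calls were used. The platform annotation gave 41097 of 54675 probe sets exactly 1 gene, and for 41043 of them the Entrez identifier was found in the RefSeq gene table.

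Values under the 25th percentile of all values were set to it before log2 was taken. A gene was its brightest probe set with 1 gene. It counted as measured above the 50th percentile of probe set means. No test could be run on single arrays. Genes at least 1.5-fold or 2-fold from the control were counted, and the number of arrays limits the precision. The procedure was tested on simulated data, at the 2-fold limit only. The planted shifts were larger than any difference of the 10 genes from the control, so smaller differences were not covered. The 10 genes, the 11 lists and the cell type markers were chosen with earlier results of these data known. Named genes were the 10 genes, up to 4 measured genes per list with the largest difference at any time, and the 5 genes nearest to SATB1. Alternatives were another value per gene, scaling, floor, log scale and filter. Scripts used Python 3.11.15 with pandas 2.3.3.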

Additional observations from a re-analysis of the deposited data

How the results depend on the processing

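Of 234 values of single genes under 8 alternatives, 91 equalled the reported value, among them every one with no floor, 125 moved by less than the SD between probe sets and 18 by more. Every 8 h difference of IKZF3 (-0.62 to -0.54) and IRF4 (-0.33 to -0.25) and every difference of PRDM1 (0.21 to 0.35) and CRBN (-0.16 to -0.033 at 8 h, 0.21 to 0.37 later) kept its sign. Taking the median of every probe set of a gene, and the choice without _x_at and _s_at probe sets, both put SATB1 at -0.19, 0.12 and 0.61 at 8, 16 and 24 h and BCL6 at 0 at 8 and 16 h, and both left 0 genes at least 1.5-fold higher at 16 h and 0 at least 2-fold higher at 24 h. The second also left 0 at least 1.5-fold higher at 24 h, with 6 genes measured. SATB1, at 0.61, was past 1.5-fold in it, but the probe set used was below the filter, so the gene was not counted. The first put BACH2 at 0.22 and 0.15 at 16 and 24 h, as did the median over measured probe sets, an alternative chosen after seeing the data, and PAX5 at 0.15 at 24 h. PAX5 stood at 0 at each time with the floor at the median of all values. With arrays scaled to the same median, 1 gene was at least 1.5-fold lower at 8 h (IKZF3), and 2 and 4 genes were below 0 at 16 and 24 h, beside 1 and 2. A stricter filter, at the 75th percentile, left 1 gene below 0 at 24 h. Among list medians, the median over probe sets gave -0.043 for T and NK cell markers at 8 h, -0.12 for other Ikaros genes at 16 h and 0.13 for proposed cereblon clients at 24 h, and no filter gave -0.12 for other Ikaros genes at 16 h. The median over the measured genes (6 to 10 of them) ran between -0.14 and -0.00088 at 8 h, 0.12 and 0.22 at 16 h, and 0.013 and 0.20 at 24 h. The labels give no replicates, so no paired analysis was possible because each group is 1 array. Low signals limit PAX5, BCL6 and the dimmer probe sets of SATB1.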
